A study of Homo sapiens with 8 samples.

Results

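The aminoacyl-tRNA synthetases are the enzymes that join each amino acid to its tRNA, and their mRNAs were followed in K562 cells with and without Lip-1. Members were chosen by gene symbol (a letter for the amino acid followed by ARS, ARS1 or ARS2, plus EPRS1, FARSA and FARSB). The choice was made with earlier results of these data known. It gave 37 of the 19447 genes in the count table. Of these, 18 encode cytosolic enzymes, 17 carry the suffix 2 and encode mitochondrial enzymes, and 2, GARS1 and KARS1, encode both forms from one gene. K562 is an established human cell line from a chronic myeloid leukaemia, given as wild type in the labels. The groups were 4 control libraries without Lip-1 (Day 0), 3 libraries at 10 µM Lip-1 (replicates 2 to 4) and 1 library at 20 µM Lip-1 (replicate 1), the treated ones at 24 h (Day 1). The labels do not say whether controls received a vehicle and do not spell out Lip-1, which commonly stands for liproxstatin-1, a compound that blocks lipid peroxidation. All controls are labelled Day 0 and all treated libraries Day 1, so treatment and day cannot be told apart in comparisons with control, and nothing states that replicates came from separate cultures, so p-values measure only the spread between these libraries.

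As background, a cell needs a synthetase for every amino acid in the cytosol and a second set in mitochondria, where all but the shared enzymes come from separate nuclear genes. Mitochondria have no glutaminyl enzyme of their own: glutamate is first loaded by EARS2 and then amidated on the tRNA. Many genes of cytosolic synthetases are known targets of ATF4, a transcription factor made when stress kinases phosphorylate eIF2, which binds the C/EBP-ATF response element, whereas the mitochondrial genes are not classically counted among its targets.

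Counts summed to between 71151415 (10 µM replicate 3) and 141307169 (control 1) per library. Levels are given as CPM, the count per 1000000 counts of the library scaled by TMM, a correction for library composition. All 10 K562 markers examined, including HBG1, GATA1 and TFRC, were at 20.3 CPM or more in every library, while MS4A1, CD3E and MPO, markers of other blood cells, stayed under 1 CPM. Summed K562 markers ran from 5239 to 8088 CPM in controls and from 4359 to 5114 CPM at 10 µM, and stood at 3092 CPM at 20 µM. Other blood markers summed to 33.9 to 142.6 CPM in controls, 39.2 to 117.6 CPM at 10 µM and 25.1 CPM at 20 µM, nearly all of it LYZ and CD3D, and the epithelial and fibroblast markers to 32.0 to 60.8, 31.2 to 42.0 and 25.9 CPM. Their part in the results below was not tested. In these bulk libraries fewer cells of a type and less RNA per cell cannot be told apart. The submitters' library names hold letters in controls 1 and 4, 10 µM replicate 4 and the 20 µM library, and digits in the others; the labels do not call this a batch.

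The letters of the response element were searched in the members' promoters. The motif TGATGCAA and the looser TGATGNAA, of which every TGATGCAA match is also a match, were searched on both strands from 250 bases before to 50 bases after each start that RefSeq lists (GRCh38.p14). Entries were matched for 30 of the 37 members. TGATGCAA was found in 6 of 14 cytosolic genes, 0 of 2 shared genes and 0 of 14 mitochondrial genes, against 0.866% of all 35116 promoters (1.08% of 27305 genes). The match in these 6 genes is shown in capitals in a window of 30 bases on the strand of the gene, where TTGCATCA is TGATGCAA read from the other strand.
AARS1 (chr16:70289675-70289704, minus strand): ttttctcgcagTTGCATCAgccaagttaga
CARS1 (chr11:3057407-3057436, minus strand): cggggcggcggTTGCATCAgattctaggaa
IARS1 (chr9:92293692-92293721, minus strand): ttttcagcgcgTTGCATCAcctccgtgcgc
MARS1 (chr12:57488053-57488082, plus strand): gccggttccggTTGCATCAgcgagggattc
NARS1 (chr18:57621804-57621833, minus strand): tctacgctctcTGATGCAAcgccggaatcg
TARS1 (chr5:33440956-33440985, plus strand): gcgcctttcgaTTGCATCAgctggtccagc

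The looser TGATGNAA, present in 3.617% of all promoters (4.457% of genes), added GARS1 and the mitochondrial YARS2, shown for comparison with the windows above. In AARS1 the match lies well before the listed start, whereas the windows of CARS1, IARS1, MARS1 and TARS1 span it. A match is a description of the letters, not evidence of binding.
GARS1 (chr7:30594834-30594863, plus strand): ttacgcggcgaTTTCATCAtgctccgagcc
YARS2 (chr12:32756076-32756105, minus strand): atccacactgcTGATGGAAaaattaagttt

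The whole upstream stretch of AARS1, whose mRNA rose at both doses, gives the context of its match (chr16:70289507-70289756, minus strand, the 250 bases before the listed start).
AARS1 upstream: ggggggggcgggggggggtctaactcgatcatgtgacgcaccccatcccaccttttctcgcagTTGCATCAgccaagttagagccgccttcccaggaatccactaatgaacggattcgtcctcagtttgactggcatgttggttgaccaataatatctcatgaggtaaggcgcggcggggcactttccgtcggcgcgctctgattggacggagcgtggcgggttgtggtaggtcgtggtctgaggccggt

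At 10 µM the mitochondrial synthetase mRNAs were lower and the cytosolic ones split in both directions. Against control, 0 mitochondrial members rose and 6 of 17 fell, with a median log2 fold change of -0.42 and 15 of 17 values below 0. At an unadjusted p under 0.05, 0 rose and 11 fell, and DESeq2 and limma-voom also called 0 higher, with 8 and 7 lower. Among the 18 cytosolic members, 3 rose and 5 fell, with a median of -0.08. Of the shared genes, KARS1 fell and GARS1 did not pass the test. Over all 14857 genes tested, 19.1% passed the threshold (9.34% higher and 9.79% lower) and the median was 0.05. All 37 members passed the filter on low counts. The test was edgeR's quasi-likelihood test with Benjamini-Hochberg adjustment over all genes tested, at 0.05. Of the 15 members called, all kept their sign within the digit-named and within the letter-named libraries. In digit-named libraries alone 14 of the 15 passed, and AARS2 did not (edgeR adjusted p = 0.0684). In letter-named libraries alone, with 1 library at 10 µM, 7 passed, and AARS1, CARS1, CARS2, FARSB, HARS1, NARS2, RARS1 and YARS2 did not. The cytosolic count of lower members was 2 without 10 µM replicate 4 and 3 without control 3, and the mitochondrial count was 3 without 10 µM replicate 3 and 9 without control 1.

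**Figure D1:**
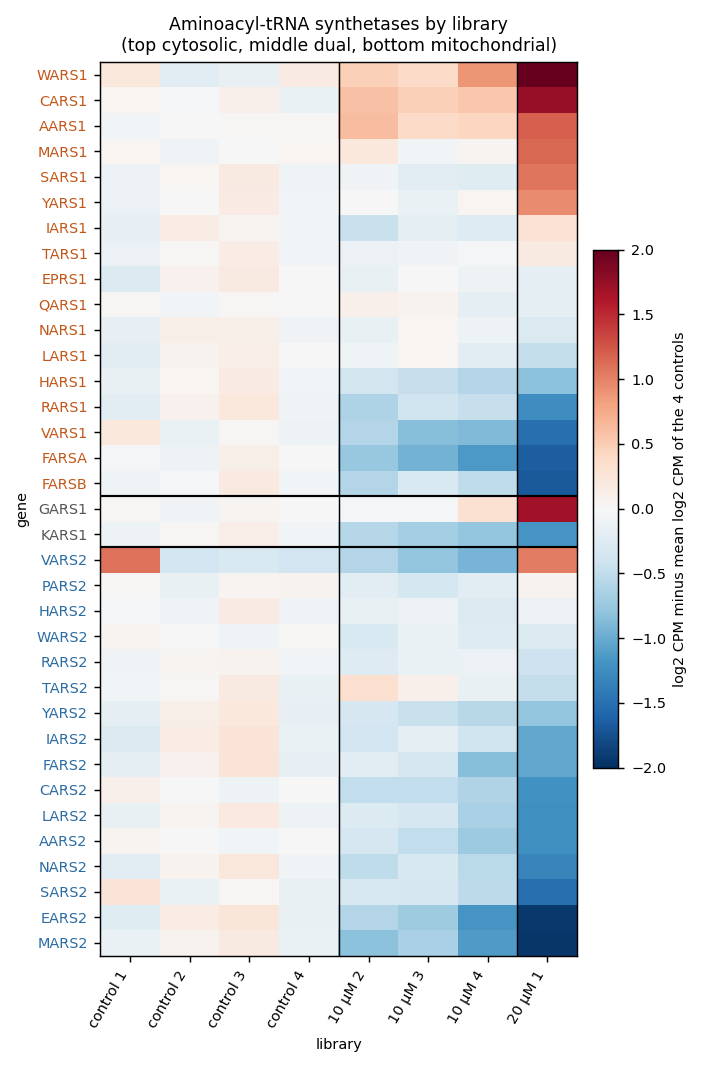
Level of 35 members in each of the 8 libraries, as log2 CPM minus the mean log2 CPM of the 4 controls, with cytosolic genes at the top, the shared genes GARS1 and KARS1 in the middle and mitochondrial genes at the bottom, each sorted by the 20 µM library. Colours stop at 2 in either direction, which WARS1 (2.36 at 20 µM) exceeds; most mitochondrial genes are blue in the treated libraries, cytosolic genes are red or blue, and VARS2 is red in control 1 and at 20 µM.

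Single libraries showed the same arrangement. In 14 of 17 mitochondrial genes all 3 libraries at 10 µM lay below all 4 controls, and in 0 did all lie above. In 6 of 18 cytosolic genes they lay below and in 3 above. Over all genes tested, 15.8% had every 10 µM library below every control and 15.7% above, 31.4% in all. The median deviation from the control mean was taken over each class in each library. For the mitochondrial genes it was -0.07, 0.02, 0.16 and -0.10 in controls 1 to 4, -0.32, -0.34 and -0.54 in 10 µM replicates 2 to 4, and -1.04 at 20 µM. For the cytosolic genes it was -0.12, 0.01, 0.12 and -0.05 in controls, -0.10, -0.06 and -0.14 at 10 µM, and -0.19 at 20 µM. The mitochondrial medians of the treated libraries were all below those of the controls, while the cytosolic medians lay within the control range in 10 µM replicates 2 and 3 and just below it in replicate 4. The cytosolic minus mitochondrial difference was between -0.04 and 0.05 in the controls, 0.30 ± 0.09 (SD, n = 3) at 10 µM and 0.85 at 20 µM. Members are not replicates, so no p is given for these medians. Within the libraries named with digits, the 10 µM minus control medians were -0.38 for mitochondrial and -0.18 for cytosolic genes, and within those named with letters -0.39 and -0.05.

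**Figure D2:**
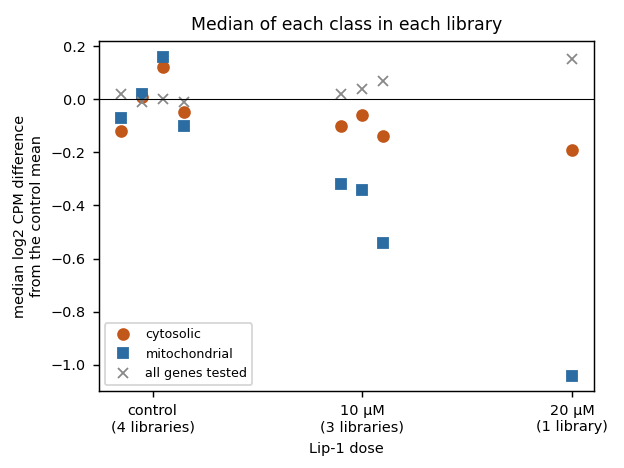
Median over each class of the log2 CPM difference from the control mean, 1 point per library, by Lip-1 dose from control to 20 µM. Mitochondrial medians (squares) run from -0.32 to -0.54 at 10 µM and reach -1.04 at 20 µM, cytosolic medians (circles) stay between -0.19 and 0.12, and crosses give the median of all genes tested.

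The single 20 µM library was tested against the 3 at 10 µM in the same fit, on the assumption that it varies like the others. Here 7 cytosolic members were higher and 5 lower, against 1 higher and 9 lower among the mitochondrial members, with medians of -0.15 and -0.68. GARS1 was higher and KARS1 lower. Over all genes 26.3% passed (11.7% higher, 14.6% lower), with a median of 0.01. This comparison shares the 10 µM libraries with the one above, so the values of both are given side by side and not as independent results. Set against the control mean, with no test, 5 cytosolic members stood more than 1 log2 unit higher at 20 µM and 4 more than 1 lower, and 1 mitochondrial member stood higher and 10 lower. The shares over all genes were 27.3% higher and 14.8% lower.

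**Figure D3:**
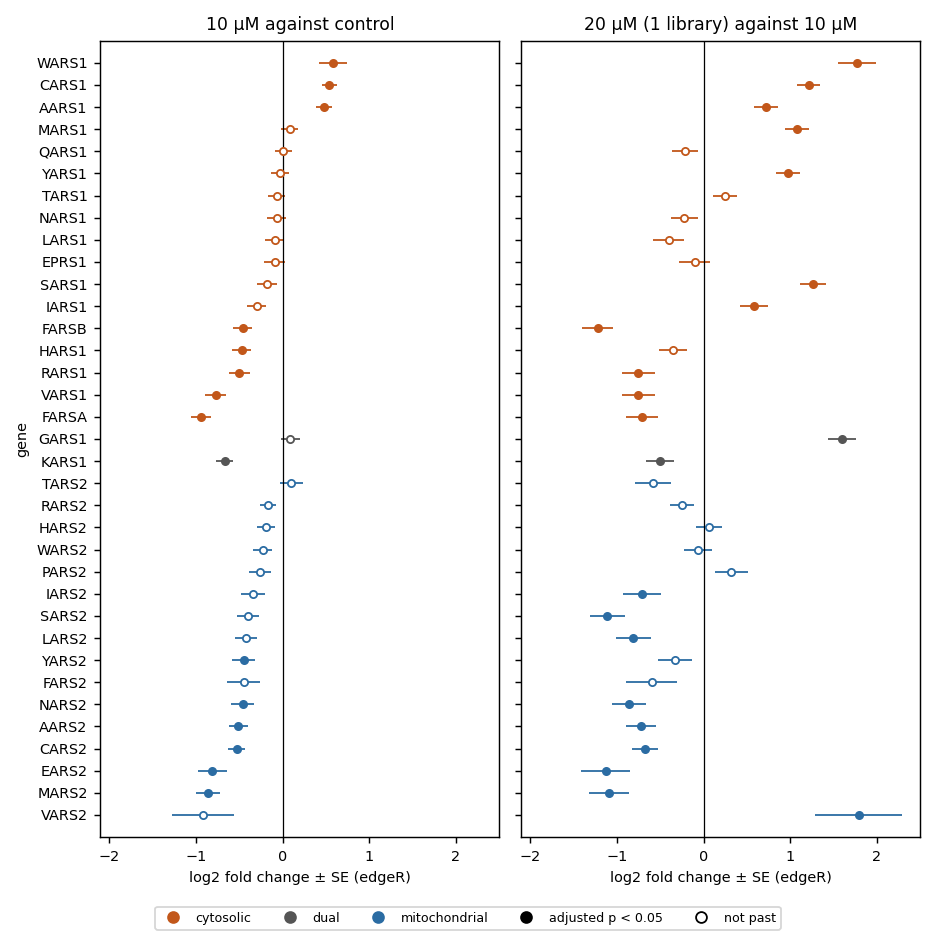
edgeR log2 fold change ± SE of 35 members, at left 10 µM (3 libraries) against control (4 libraries) and at right the single 20 µM library against 10 µM, with filled points past an adjusted p of 0.05. Cytosolic points spread on both sides of 0 in both panels, from -0.94 to 0.58 at left and from -1.22 to 1.77 at right, and mitochondrial points lie mostly below 0, with TARS2 above 0 at left and VARS2, PARS2 and HARS2 above 0 at right.

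The 3 cytosolic genes WARS1, CARS1 and AARS1 rose at 10 µM, and all were higher again at 20 µM. Gene spans here and in what follows are those of GENCODE 29 on GRCh38. WARS1 (chr14:100333788-100376805, minus strand), the tryptophanyl enzyme, which interferon also induces, had 236, 176, 184 and 230.2 CPM in controls 1 to 4, 284, 266 and 379 CPM in 10 µM replicates 2 to 4, and 1053 CPM at 20 µM. All treated libraries lay above all controls. Its log2 fold change was 0.58 ± 0.16 (SE) for 10 µM against control (edgeR adjusted p = 0.0334) and 1.77 ± 0.22 for 20 µM against 10 µM (edgeR adjusted p = 0.00106). The first call was lost without any one of 10 µM replicates 2, 3 and 4 and controls 2 and 3, with edgeR adjusted p from 0.0533 to 0.131. Of its exon bases, 10.6% overlap exons of other genes, and 13.3% in MARS1.

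CARS1 (chr11:3000922-3057613, minus strand), the cysteinyl enzyme, had 55.5, 53.2, 57.8 and 49.4 CPM in controls, 81.1, 75.3 and 78.6 CPM at 10 µM, and 181 CPM at 20 µM. AARS1 (chr16:70252295-70289543, minus strand), the alanyl enzyme, had 269, 281, 283 and 285 CPM in controls, 429, 365 and 376 CPM at 10 µM, and 642 CPM at 20 µM. In both genes no treated library overlapped the controls, and both carry the TTGCATCA shown above. CARS1 changed by 0.54 ± 0.09 at 10 µM against control (edgeR adjusted p = 0.00607) and by 1.21 ± 0.13 at 20 µM against 10 µM (edgeR adjusted p = 0.000548). AARS1 changed by 0.48 ± 0.09 (edgeR adjusted p = 0.0092) and by 0.72 ± 0.14 (edgeR adjusted p = 0.00555) in the same comparisons. Both 10 µM calls held without any single library.

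A further 4 cytosolic genes, SARS1, MARS1, YARS1 and IARS1, did not pass at 10 µM but were higher at 20 µM than at 10 µM. SARS1, the seryl enzyme, had 275, 306, 337 and 282 CPM in controls, 285, 255 and 254 CPM at 10 µM and 632 CPM at 20 µM. MARS1, which loads the methionine that starts every cytosolic protein as well as internal methionine, had 247, 229, 239 and 248 CPM in controls, 278, 232 and 251 CPM at 10 µM and 535 CPM at 20 µM. At 10 µM SARS1 and MARS1 overlapped the controls, and the 20 µM library stood above all 7 others. Against 10 µM, SARS1 was higher by 1.26 ± 0.15 (edgeR adjusted p = 0.000821) and MARS1 by 1.08 ± 0.14 (edgeR adjusted p = 0.00108).

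YARS1, the tyrosyl enzyme, had 239, 258, 289 and 248 CPM in controls, 256, 236 and 265 CPM at 10 µM and 496 CPM at 20 µM, a log2 change of 0.97 ± 0.14 against 10 µM (edgeR adjusted p = 0.00201). IARS1, the isoleucyl enzyme, had 564, 700.0, 655 and 606 CPM in controls, 459.6, 547 and 527 CPM at 10 µM and 767 CPM at 20 µM. The 10 µM libraries of IARS1 were all below the controls, though its change of -0.30 ± 0.11 did not pass (edgeR adjusted p = 0.0888), and the 20 µM library was the highest of all. Its change against 10 µM was 0.58 ± 0.16 (edgeR adjusted p = 0.0266).

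Cytosolic genes that fell at 10 µM numbered 5, among them both subunits of the phenylalanyl enzyme, whose catalytic chain FARSA and larger chain FARSB assemble together. FARSA (chr19:12922479-12934037, minus strand) had 328, 311, 363 and 331 CPM in controls, 197, 173 and 151 CPM at 10 µM and 106 CPM at 20 µM. FARSB had 150.4, 155, 183 and 155 CPM in controls, 107, 131 and 112 CPM at 10 µM and 49.98 CPM at 20 µM. All treated libraries of both genes lay below all controls. FARSA changed by -0.94 ± 0.12 at 10 µM against control (edgeR adjusted p = 0.00193), the lowest log2 fold change of the family, and by -0.71 ± 0.18 at 20 µM against 10 µM (edgeR adjusted p = 0.0188). FARSB changed by -0.46 ± 0.11 (edgeR adjusted p = 0.0224) and by -1.22 ± 0.18 (edgeR adjusted p = 0.0021). The 10 µM call of FARSB was lost without 10 µM replicate 4 (edgeR adjusted p = 0.0629) or control 3 (0.0582).

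VARS1 (chr6:31777518-31795953, minus strand), the valyl enzyme, which binds elongation factor subunits, had 865, 679.7, 754 and 698 CPM in controls, 495, 415 and 404 CPM at 10 µM and 261 CPM at 20 µM. RARS1, the arginyl enzyme, had 179.6, 222, 241 and 199 CPM in controls, 136, 158 and 152 CPM at 10 µM and 88.7 CPM at 20 µM. In both genes every treated library was below every control, and the 20 µM library was the lowest. VARS1 changed by -0.77 ± 0.12 at 10 µM against control (edgeR adjusted p = 0.00452) and by -0.75 ± 0.19 at 20 µM against 10 µM (edgeR adjusted p = 0.0195). RARS1 changed by -0.50 ± 0.12 (edgeR adjusted p = 0.0228) and by -0.75 ± 0.19 (edgeR adjusted p = 0.0199). Its 10 µM call was lost without 10 µM replicate 4, control 2 or control 3 (edgeR adjusted p from 0.0509 to 0.059).

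The cytosolic genes EPRS1, LARS1, NARS1, QARS1 and TARS1 passed in neither comparison, with log2 fold changes between -0.40 (LARS1, 20 µM against 10 µM) and 0.25 (TARS1, the same comparison).

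The 20 cytosolic and shared genes were also divided by whether background knowledge counts them among ATF4-responsive genes. Of the 12 counted as responsive (AARS1, CARS1, EPRS1, GARS1, IARS1, LARS1, MARS1, NARS1, SARS1, TARS1, WARS1 and YARS1), 3 rose and 0 fell at 10 µM, and 8 were higher and 0 lower at 20 µM than at 10 µM, with medians of -0.05 and 0.85. In the first comparison 1 of them, IARS1, was lower at an unadjusted edgeR p under 0.05 and by DESeq2, and 0 by limma-voom; in the second all 3 gave 0 lower. Of the 8 others (among them FARSA, FARSB, HARS1, KARS1, QARS1, RARS1 and VARS1), 0 rose and 6 fell at 10 µM, and 0 were higher and 6 lower at 20 µM, with medians of -0.49 and -0.73. The number higher was also 0 at an unadjusted p, by DESeq2 and by limma-voom in both comparisons. The medians of all genes were 0.05 and 0.01. Of all genes tested, 9.34% were higher and 9.79% lower in the first comparison, and 11.7% and 14.6% in the second. The grouping was drawn up with an ATF4-linked response of these libraries already known, and no test was made of it.

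By the promoter letters alone, the 6 cytosolic genes with TGATGCAA had 2 higher and 0 lower at 10 µM and 4 higher and 0 lower at 20 µM against 10 µM. The 10 cytosolic and shared genes with an entry but no TGATGCAA had 1 higher and 5 lower, then 3 higher and 4 lower. The 3 higher genes without the letters were WARS1, SARS1 and GARS1, and NARS1 and TARS1 held the letters and did not pass, so letters and direction did not coincide gene by gene. Over all genes tested, 9.34% were higher and 9.79% lower at 10 µM, and 11.7% and 14.6% at 20 µM against 10 µM. By catalytic class, 2 of 9 class I genes rose and 2 fell at 10 µM, and 1 of 10 class II genes rose and 4 fell. Of the 8 genes whose enzymes belong to the multisynthetase complex, an assembly of cytosolic synthetases, 0 rose and 2 fell at 10 µM, against 3 and 4 of the 12 outside it. The differences between these groupings were not tested.

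The genes that serve both compartments went opposite ways. GARS1 (chr7:30594681-30634033, plus strand), the glycyl enzyme, had 309, 290.5, 316 and 307 CPM in controls, 296, 299 and 379 CPM at 10 µM and 982 CPM at 20 µM. KARS1 (chr16:75627474-75648643, minus strand), the lysyl enzyme, had 450.0, 494, 535 and 466 CPM in controls, 328, 304 and 284 CPM at 10 µM and 215 CPM at 20 µM. GARS1 overlapped the controls at 10 µM and was far above them at 20 µM, whereas every treated library of KARS1 was below every control. GARS1 changed by 0.09 ± 0.11 at 10 µM against control (edgeR adjusted p = 0.642) and by 1.60 ± 0.16 at 20 µM against 10 µM (edgeR adjusted p = 0.000388), the smallest adjusted p of any member in that comparison. KARS1 changed by -0.67 ± 0.10 (edgeR adjusted p = 0.0039) and by -0.50 ± 0.16 (edgeR adjusted p = 0.0421). The second call of KARS1 was lost without 10 µM replicates 2 or 3 or controls 2 or 4 (edgeR adjusted p from 0.0604 to 0.0748).

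**Figure D4:**
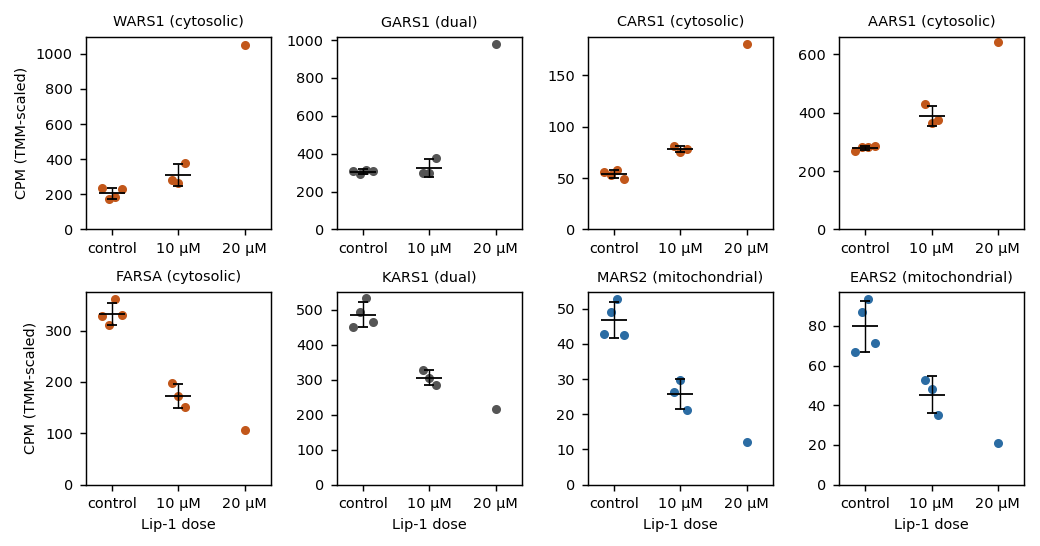
TMM-scaled CPM of 8 members by Lip-1 dose, 1 point per library, with the mean ± SD of the 4 controls and the 3 libraries at 10 µM as bars; the 20 µM group has a single library and no bar. The top row (WARS1, GARS1, CARS1, AARS1) is highest at 20 µM, where WARS1 reaches 1053 CPM, and the bottom row (FARSA, KARS1, MARS2, EARS2) is lowest there, where MARS2 reaches 12.1 CPM.

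Among the mitochondrial enzymes, MARS2 and EARS2 had the lowest levels relative to control at 20 µM. MARS2 (chr2:197705369-197708387, plus strand), which loads methionine onto the tRNA used both to start and to extend mitochondrial proteins, had 42.7, 49.1, 52.7 and 42.6 CPM in controls, 26.3, 29.7 and 21.3 CPM at 10 µM and 12.1 CPM at 20 µM. EARS2 (chr16:23522014-23557731, minus strand), the glutamyl enzyme, had 66.8, 87.2, 93.5 and 71.4 CPM in controls, 52.8, 48.4 and 34.9 CPM at 10 µM and 20.7 CPM at 20 µM. Neither gene overlapped the controls in any treated library. MARS2 changed by -0.86 ± 0.14 at 10 µM against control (edgeR adjusted p = 0.00576) and by -1.09 ± 0.23 at 20 µM against 10 µM (edgeR adjusted p = 0.00893). EARS2 changed by -0.81 ± 0.17 (edgeR adjusted p = 0.0135) and by -1.13 ± 0.28 (edgeR adjusted p = 0.0163). At 20 µM the levels of MARS2 and EARS2 were 3.85-fold and 3.84-fold below the control means, with no replicate check.

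CARS2, AARS2, NARS2 and YARS2, the cysteinyl, alanyl, asparaginyl and tyrosyl enzymes, made up the rest of the 6. CARS2 had 54.3, 50.3, 47.4 and 50.9 CPM in controls, 35.9, 36.0 and 33.4 CPM at 10 µM and 21.9 CPM at 20 µM. AARS2 had 103, 99.1, 95.5 and 100.1 CPM in controls, 79.0, 70.5 and 59.8 CPM at 10 µM and 42.5 CPM at 20 µM. Controls and treated libraries did not overlap in CARS2 or AARS2. CARS2 changed by -0.53 ± 0.10 (edgeR adjusted p = 0.00734) and AARS2 by -0.51 ± 0.11 (edgeR adjusted p = 0.0139) at 10 µM against control, and by -0.68 ± 0.15 (edgeR adjusted p = 0.0103) and -0.72 ± 0.17 (edgeR adjusted p = 0.0151) at 20 µM against 10 µM. The 10 µM call of AARS2 was lost without 10 µM replicate 3 (edgeR adjusted p = 0.0574).

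NARS2 had 43.8, 53.7, 59.9 and 48.4 CPM in controls, 35.9, 40.9 and 35.2 CPM at 10 µM and 20.6 CPM at 20 µM. YARS2 had 49.4, 60.8, 64.9 and 49.98 CPM in controls, 44.3, 41.2 and 38.0 CPM at 10 µM and 32.7 CPM at 20 µM. All treated libraries of both lay below the controls, by a small margin in 10 µM replicate 3 for NARS2. NARS2 changed by -0.46 ± 0.13 at 10 µM (edgeR adjusted p = 0.0357) and YARS2 by -0.45 ± 0.13 (edgeR adjusted p = 0.0384). NARS2 lost this call without any one of the 10 µM libraries or of controls 2, 3 and 4, and YARS2 without 10 µM replicates 3 or 4 or controls 2 or 3, with edgeR adjusted p from 0.0538 to 0.118. At 20 µM against 10 µM, NARS2 was lower by a log2 change of -0.86 ± 0.20 (edgeR adjusted p = 0.0138), and YARS2, at -0.33 ± 0.20, did not pass (edgeR adjusted p = 0.249).

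SARS2, LARS2 and IARS2 passed in the comparison of doses and not at 10 µM against control. Whether their changes differ between the comparisons was not tested. SARS2, the seryl enzyme, had 57.5, 43.7, 49.2 and 43.6 CPM in controls, 38.7, 38.1 and 33.6 CPM at 10 µM and 17.0 CPM at 20 µM, and changed by -0.40 ± 0.13 at 10 µM (edgeR adjusted p = 0.0577) and by -1.11 ± 0.20 at 20 µM against 10 µM (edgeR adjusted p = 0.00487). Of the exon bases of SARS2, 57.0% overlap exons of other annotated genes, mainly one on the same strand, so its counts are uncertain.

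LARS2, the leucyl enzyme, changed by -0.42 ± 0.13 at 10 µM (edgeR adjusted p = 0.0521) and by -0.81 ± 0.20 at 20 µM against 10 µM (edgeR adjusted p = 0.0181). Its first change passed without 10 µM replicate 2 (edgeR adjusted p = 0.04), control 1 (0.0429) or the 20 µM library (0.0453). IARS2, the isoleucyl enzyme and the most abundant of its class per length, changed by -0.34 ± 0.14 (edgeR adjusted p = 0.126) and by -0.71 ± 0.22 (edgeR adjusted p = 0.0409). The call for IARS2 at 20 µM was lost without 10 µM replicates 2 or 3 or controls 2 or 4 (edgeR adjusted p from 0.0523 to 0.0775), and its change at 10 µM passed without control 1 (0.0471).

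FARS2, HARS2, PARS2, RARS2, TARS2 and WARS2 passed in neither comparison, with 10 µM log2 fold changes between -0.45 (FARS2) and 0.10 (TARS2, the highest of its class). TARS2, the threonyl enzyme, had 49.2, 51.5, 57.8 and 45.8 CPM in controls, 63.4, 54.4 and 45.95 CPM at 10 µM and 36.6 CPM at 20 µM, so that the 10 µM libraries overlapped the controls and the 20 µM library was the lowest. It changed by 0.10 ± 0.13 at 10 µM (edgeR adjusted p = 0.674) and by -0.58 ± 0.21 at 20 µM against 10 µM (edgeR adjusted p = 0.0697). Without 10 µM replicate 4, TARS2 (edgeR adjusted p = 0.0255) and FARS2 (0.0404) passed as lower at 20 µM.

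VARS2 (chr6:30908242-30926459, plus strand), the mitochondrial valyl enzyme, stood apart through 2 libraries. It had 107, 38.8, 40.9 and 38.6 CPM in controls 1 to 4, 33.6, 29.4 and 26.4 CPM in 10 µM replicates 2 to 4, and 103 CPM at 20 µM. The libraries numbered 1, control 1 and the 20 µM library, were the highest of the 8 by a wide gap, and the 10 µM libraries were below all controls. The change at 10 µM was -0.92 ± 0.36 (edgeR adjusted p = 0.111), and without control 1 it was -0.40 and passed (edgeR adjusted p = 0.0461). VARS2 was the single mitochondrial gene called higher at 20 µM than at 10 µM (1.79 ± 0.50, edgeR adjusted p = 0.0266), a call lost without any one of 10 µM replicates 2, 3 and 4 (edgeR adjusted p from 0.0609 to 0.0756). Of its exon bases, 22.0% overlap GTF2H4 on the same strand, so reads there cannot be told apart.

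Setting each cytosolic gene beside its mitochondrial partner for the same amino acid gave 17 pairs, with EPRS1, which carries both the glutamyl and the prolyl enzyme, paired with EARS2 and with PARS2, and both FARSA and FARSB with FARS2. The log2 fold change of the cytosolic gene exceeded that of its partner in 12 pairs at 10 µM against control and in 11 at 20 µM against 10 µM. The widest difference at 10 µM was for cysteine (0.54 for CARS1 and -0.53 for CARS2, 1.07 apart), and alanine (0.99) and methionine (0.94) came next. In these 3 pairs the difference relative to control was positive in all 3 libraries at 10 µM, between 0.60 and 1.19. At 20 µM relative to control, MARS1 was 1.15 higher and MARS2 stood at -1.94, a difference of 3.09.

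**Figure D5:**
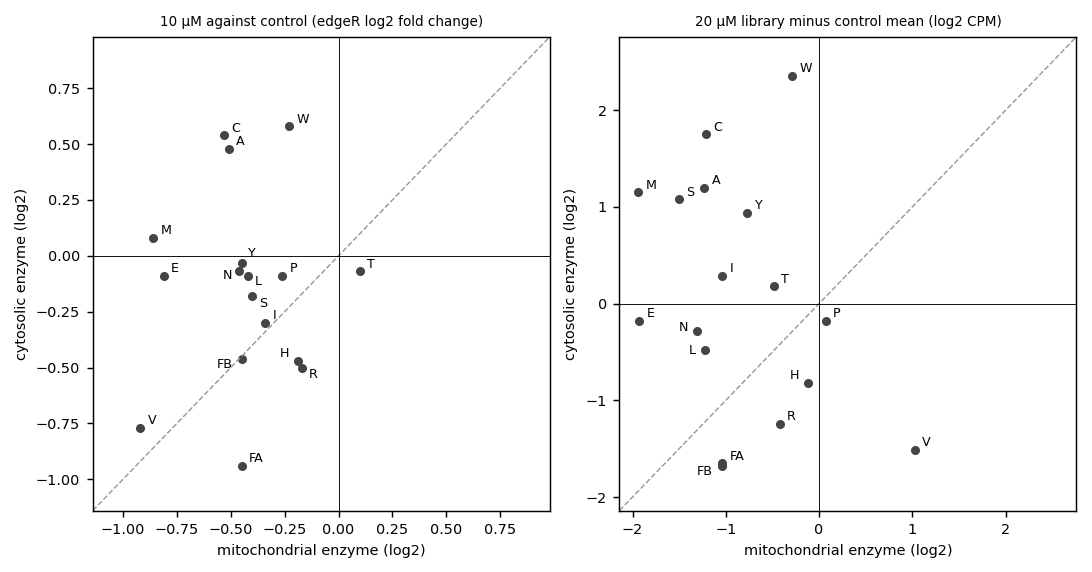
Cytosolic against mitochondrial change for each of 17 pairs, labelled by the one-letter code of the amino acid (FA and FB are FARSA and FARSB against FARS2), at left the edgeR log2 fold change of 10 µM against control and at right log2 CPM of the 20 µM library minus the control mean. Points above the dashed line of equal change have the higher value for the cytosolic gene: 12 of 17 at left and 11 of 17 at right, with V, valine, at the far lower right of the right panel (-1.51 for VARS1 and 1.03 for VARS2).

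The pairs of FARSA, HARS1 and RARS1 ran the other way in both comparisons. FARSB and FARS2 were level at 10 µM (-0.01 apart, with differences of -0.38, 0.04 and 0.35 in the 3 libraries), and -0.62 apart at 20 µM against 10 µM. HARS1 and HARS2, the cytosolic and mitochondrial histidyl enzymes, sit head to head on chromosome 5 and are transcribed away from each other, with 84 bases between the starts that RefSeq lists. That shared stretch is shown on the strand of HARS2 (chr5:140691371-140691454, plus strand, GRCh38.p14), and neither motif occurs in the promoter window of either gene.
between HARS1 and HARS2: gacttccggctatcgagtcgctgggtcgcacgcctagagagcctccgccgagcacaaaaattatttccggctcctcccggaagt

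HARS1 had 114, 130.3, 143 and 123 CPM in controls, 98.1, 92.6 and 84.7 CPM at 10 µM and 72.1 CPM at 20 µM. HARS2 had 53.3, 51.2, 60.1 and 51.5 CPM in controls, 48.9, 49.5 and 44.1 CPM at 10 µM and 49.5 CPM at 20 µM. Treated libraries lay below the controls in both genes, by a wide margin in HARS1 and by a narrow one in HARS2. HARS1 changed by -0.47 ± 0.11 at 10 µM (edgeR adjusted p = 0.0171), a call lost without 10 µM replicate 3 (0.0554) or replicate 4 (0.0565), and HARS2 by -0.19 ± 0.10 (edgeR adjusted p = 0.238). At 20 µM against 10 µM neither passed, at -0.35 ± 0.16 for HARS1 (edgeR adjusted p = 0.152) and 0.06 ± 0.15 for HARS2 (edgeR adjusted p = 0.801). HARS1 minus HARS2 relative to control was -0.23, -0.33 and -0.30 in the 3 libraries at 10 µM and -0.70 at 20 µM. Of the exon bases of HARS2, 15.8% overlap other genes, mostly HARS1 on the opposite strand, and whether counting used strand is not given in the sources used here.

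QARS1, the glutaminyl enzyme, has no mitochondrial partner. It had 196, 186, 195 and 192 CPM in controls, 207, 202 and 169.6 CPM at 10 µM and 167 CPM at 20 µM, with overlap between controls and 10 µM. It changed by 0.01 ± 0.10 at 10 µM (edgeR adjusted p = 0.979) and by -0.21 ± 0.15 at 20 µM against 10 µM (edgeR adjusted p = 0.352). The subunits of the amidotransferase that completes the mitochondrial route after EARS2 (GATB, GATC and QRSL1), listed with the formyltransferase MTFMT, gave 0 of 4 genes past edgeR's threshold in either comparison, with medians of -0.20 and -0.37. At an unadjusted p under 0.05, 2 were lower in the first comparison and 0 in the second, and DESeq2 called 1 and 0 lower. Of all genes tested, 19.1% and 26.3% passed edgeR's threshold, so a count of 0 among 4 genes says little. The changes with the smallest p at 10 µM were -0.39 for QRSL1, -0.28 for GATC and -0.11 for MTFMT.

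Levels between genes were compared per kilobase of exon (GENCODE 29), with all annotated exons of a gene merged. This length was 10.04 kb for CARS1, 10.46 kb for CARS2 and 2.44 kb for FARSA, and the order of genes depends on it. In controls the cytosolic genes ran from 5.38 CPM per kb (CARS1) to 137 (FARSA), with a median of 56.3, and the mitochondrial genes from 4.85 (CARS2) to 66.9 (IARS2), with a median of 14.4. GARS1 stood at 73.7 and KARS1 at 119 CPM per kb. Per kb, FARSA led the cytosolic genes in controls, EPRS1 at 10 µM (95.6 CPM per kb) and WARS1 in the single 20 µM library (166 CPM per kb, with SARS1 close at 164.5). IARS2 led the mitochondrial genes throughout (66.9, 52.9 and 32.3 CPM per kb). In CPM without the length, VARS1 (749 CPM) led the cytosolic genes in controls, and EPRS1 and WARS1 again led at 10 and 20 µM. PARS2 (16.8 CPM) was then the lowest mitochondrial gene in controls. Summed over the class, mitochondrial CPM were 1110 to 1302 in controls, 849 to 965 at 10 µM and 678 at 20 µM. Summed cytosolic CPM were 5364 to 6007 in controls, 4995 to 5054 at 10 µM and 6705 at 20 µM, so the 20 µM library was the lowest of all for one class and the highest for the other. The cytosolic sum is weighted to abundant genes: WARS1 alone went from a control mean of 206.5 CPM to 1053 CPM. Of the 18 cytosolic genes, 10 stood below the control mean at 20 µM and 8 above it, with a median of -0.19.

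Related genes from lists drawn up with earlier results known were read in the same fit. Of all genes tested, 9.34% rose and 9.79% fell at 10 µM. At 20 µM against 10 µM, 11.7% were higher and 14.6% lower. Of 12 regulators of the eIF2 branch of the stress response, 5 rose and 2 fell at 10 µM and 6 were higher and 0 lower at 20 µM against 10 µM (3 lower at an unadjusted p and 1 by DESeq2), with medians of 0.27 and 0.44. EIF2AK3, an eIF2 kinase of the endoplasmic reticulum, changed by 0.86 (edgeR adjusted p = 0.00684) and 1.72, TRIB3, a pseudokinase that ATF4 induces, by 1.07 (edgeR adjusted p = 0.0113) and 2.86, and DDIT3, the transcription factor CHOP, by 1.79 (edgeR adjusted p = 0.0118) and 2.57. ATF4 itself had 311, 291, 349 and 289 CPM in controls, 394, 385 and 405 CPM at 10 µM and 961 CPM at 20 µM. Its log2 fold changes were 0.35 ± 0.10 (edgeR adjusted p = 0.0369) and 1.28 ± 0.14 (edgeR adjusted p = 0.000548), and no treated library overlapped the controls. Of 10 ATF4 targets that are not synthetases, 3 rose and 0 fell (2 lower at an unadjusted p and 1 by DESeq2), then 7 were higher and 0 lower, with medians of 0.63 and 1.31. ASNS, asparagine synthetase, changed by 1.09 (edgeR adjusted p = 0.00428), and PSPH and PSAT1, of serine synthesis, by 0.87 (0.0192) and 0.54 (0.034). DDIT3 had 24.3, 9.75, 11.1 and 22.0 CPM in controls 1 to 4. It had 46.6, 41.1 and 86.2 CPM in 10 µM replicates 2 to 4 and 344 CPM at 20 µM. In DDIT3, TRIB3, ASNS, PSPH and PSAT1 the letter-named controls 1 and 4 were above the digit-named ones, which EIF2AK3 and ATF4 did not show. The letter-named 10 µM replicate 4 was the highest at 10 µM in all of these. The part of the naming pattern in these changes was not tested.

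Genes that act beside the synthetases were counted by list, against 9.34% higher and 9.79% lower over all genes at 10 µM and 11.7% higher and 14.6% lower at 20 µM against 10 µM. Of 23 genes of tRNA processing and export, 0 rose (2 at an unadjusted p and 0 by DESeq2) and 12 fell at 10 µM (median -0.47), led by RPP40 (-0.74, edgeR adjusted p = 0.00607) and POP7 (-0.77, edgeR adjusted p = 0.012), proteins of the RNases that trim the tRNA 5′ end, and CLP1 (-0.66, edgeR adjusted p = 0.0133), a kinase bound to the tRNA splicing enzyme. At 20 µM against 10 µM 2 were higher and 11 lower, and XPOT, which exports tRNA from the nucleus, was among the higher (0.87, edgeR adjusted p = 0.00915). Of 21 genes of RNA polymerase III, which transcribes tRNA genes, and its factors, 1 rose and 10 fell at 10 µM (median -0.41), among them GTF3C6 (-0.53) and GTF3A (-0.47), and 3 were higher and 7 lower at 20 µM against 10 µM.

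The next lists hold 9 genes or fewer. Over all genes, 19.1% passed at 10 µM and 26.3% at 20 µM against 10 µM. At these shares a small number of calls, or none, would fall in each list. Of 9 mitochondrial translation factors, 0 rose and 3 fell in each comparison: TUFM, the elongation factor that carries charged tRNA to the mitochondrial ribosome, changed by -0.73 at 10 µM (edgeR adjusted p = 0.00942), TSFM, its exchange factor, by -0.67 (edgeR adjusted p = 0.00862), and GFM1, the translocation factor, by -0.63 (edgeR adjusted p = 0.0249). Of 6 cytosolic elongation factors, 0 rose and 1 fell at 10 µM, EEF1D (-0.49, edgeR adjusted p = 0.045), while EEF1B2 (-0.21) and EEF1G (-0.16) did not pass, and 0 passed at 20 µM against 10 µM, also at an unadjusted p, by DESeq2 and by limma-voom. Of the 3 scaffold proteins of the multisynthetase complex, EEF1E1 fell at 10 µM (-0.50, edgeR adjusted p = 0.0252), and AIMP2 (-0.33, edgeR adjusted p = 0.0537) and AIMP1 (-0.27, edgeR adjusted p = 0.0987) did not pass. Among 4 synthetase-like and editing proteins, AARSD1, an editing protein for mischarged alanine tRNA, fell (-0.90, edgeR adjusted p = 0.00471) and TARS3 (-0.40) and DTD1 (-0.33) did not pass at 10 µM.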

How the data were processed

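RNA was sequenced after Trizol extraction and removal of ribosomal RNA, per the labels' protocols. The submitters' processing notes name the build hg38 and the tools HISAT2, StringTie, limma, DESeq2 and bcl2fastq 2.0; their roles and further versions are not given in the sources used here. The authors deposited whole-number counts per gene, and 9 entries with no gene name were dropped. More entries stood at 4 counts (2958) than at 1 (401), so counts may not equal reads. Total counts were 71151415 to 141307169 per library, and PCR duplicates were not told apart.

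Here, genes were filtered with edgeR's filterByExpr by dose, scaled by TMM (factors 0.9003 to 1.085) and fitted over all 8 libraries with 3 dose levels, with no block, by the quasi-likelihood test, two-sided, with Benjamini-Hochberg adjustment at 0.05 (R 4.3.3, edgeR 4.0.16; limma 3.58.1 and DESeq2 1.42.0 as alternatives). Levels in CPM are counts per 1000000 of the total times the TMM factor, and log2 deviations used a prior count of 2. The SE beside a log2 fold change is not an output of edgeR. It was derived as the size of the change over the square root of the test's F statistic. The fit was tested on simulated data. Members and lists were chosen with earlier results of these data known. Members are named with values where past the threshold (the 12 of smallest p in each comparison, and further ones), at the extremes of each class, and for HARS1, HARS2, GARS1, KARS1, QARS1 and EARS2; of related lists, the 3 of smallest p at 10 µM, ATF4, DDIT3, ASNS, and XPOT, chosen after its values were seen. Gene spans, exon lengths and exon overlaps came from GENCODE 29, and promoters from RefSeq (GRCh38.p14), with older symbols matched. Other scalings, filters, tools, a replicate block, the naming pattern and leaving out each library were tried. A few genes are not reported here by name, in pairs or in figures, and stay in the counts.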

Additional observations from a re-analysis of the deposited data

Results flagged for a closer look

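In the 4 controls, 37 members were checked for a library far from the other 3, by the gap to its neighbour over the whole range (Dixon's ratio), and 2 were found, where chance gives about 1 in 20 groups. VARS2 stood at 107 CPM in control 1, against 38.6 to 40.9 CPM in the other controls. FARSB stood at 183 CPM in control 3, against 150.4 to 155 CPM in the others. No cause was tested for either.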

How the results depend on the processing

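No member called in either comparison changed sign under any alternative run. With a replicate block, 10 µM against control called 4657 genes (2842 without it) and 10 mitochondrial members lower (6 without it). In the comparison of the single 20 µM library with 10 µM, fewer cytosolic and fewer mitochondrial members passed as lower with the block. FARSA, RARS1, KARS1, LARS2, NARS2 and IARS2 were among those that no longer passed as lower, and VARS2 no longer passed as higher. The labels do not say what the numbers share. The submitters' names begin with the same character in the control and treated libraries numbered 1, 2 and 3, and not in those numbered 4. For controls 2 to 4 and 10 µM replicates 2 to 4, the deviations of log2 CPM from the mean of the library's own group were correlated over genes. These deviations correlated at 0.076, 0.211 and 0.237 between same-numbered libraries, and 5 of 6 libraries correlated best with their own number. With the pattern of letters or digits in the names as a term, 10 µM against control called 4665 genes and 10 mitochondrial members lower. In the comparison of the single 20 µM library with 10 µM, VARS2 no longer passed as higher with this term. In letter-named libraries alone, 10 µM against control called 1002 genes, 1 cytosolic higher, 2 cytosolic lower and 3 mitochondrial lower, 20 µM against 10 µM called 3 cytosolic lower, 0 mitochondrial higher and 3 mitochondrial lower, and the class difference at 20 µM was 0.76 (0.85 over all). All 4 treated libraries as 1 group gave 1855 genes, 1 cytosolic higher and 3 cytosolic lower. Leaving out single control or 10 µM libraries gave 1364 to 2788 genes, 2 to 3 cytosolic higher, 2 to 5 cytosolic lower and 3 to 9 mitochondrial lower at 10 µM, 0 to 1 mitochondrial higher at 20 µM, and a class difference at 20 µM of 0.80 to 0.89; without the 20 µM library, 3021 genes were called at 10 µM. The cause of these shifts was not tested. No 20 µM value exists without its single library or in digit-named libraries. Scaling by RLE or upper quartiles, other filters, DESeq2 and limma-voom kept the counts of cytosolic and of mitochondrial members within 1.5 times. Of the shared genes, KARS1 lost its call at 20 µM against 10 µM under RLE scaling and without a filter.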
